A study of Mus musculus with 3 samples.

Results

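The Oas and Ifit genes described here are 8 interferon-stimulated genes, the Oas members Oas1a, Oas2, Oas3, Oasl1 and Oasl2 and the Ifit members Ifit1, Ifit2 and Ifit3. They were chosen by symbol from the transcript names in the deposited tables and joined to the gene tables by gene identifier, and all 8 were found among 55536 annotated genes, of which 22028 are protein-coding. RNA came from the chromatin fraction of bone-marrow-derived macrophages, primary cells of C57BL/6J mice, which had been given 100 ng/ml lipid A for 20 min. Lipid A is the membrane anchor of bacterial lipopolysaccharide and is sensed through TLR4. All 3 libraries belong to this 1 group, and no untreated group was analysed here, so the levels below are levels after stimulation and no induction was measured. Replicates 1, 2 and 3 were made from 1 µg, 250 ng and 500 ng of RNA. The labels give each its own biosample but 1 donor entry, and do not say whether the cells came from separate animals, so spreads and p-values describe these libraries and may be technical.

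Type I interferon binds the receptor Ifnar1/Ifnar2, whose kinases Jak1 and Tyk2 activate a transcription factor complex that holds Stat2 and Irf9 and binds interferon-stimulated response elements in target genes. Oas proteins sense double-stranded RNA and make 2′,5′-oligoadenylates, signal molecules of RNA decay, while Ifit proteins are tetratricopeptide-repeat proteins that bind foreign or incompletely capped RNA and limit its translation. In macrophages these genes have a basal level maintained by constitutive interferon signalling, and the larger response to lipopolysaccharide follows the secretion of interferon-β. Chromatin-associated RNA is enriched in transcripts that are still being made or have not been released from the gene.

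Library depth was 16317439, 16245280 and 12439931 expected counts for replicates 1, 2 and 3, so that a gene at 0 could still have up to 3 counts, which is 0.184, 0.185 and 0.241 CPM, the count scaled to its library total, by counting error alone. Levels are in TPM, a transcript abundance per length that is scaled over all entries of a library. Protein-coding genes held 15.8%, 18.0% and 24.7% of the TPM of replicates 1, 2 and 3, so the median coding gene had 1.45 times the TPM in replicate 3 that it had in replicate 2. Of the macrophage markers, 10 of 10 reached 1 TPM in every library, with Cd14, Lyz2 and Csf1r the highest. Of 6 markers each, 0 reached it for T and NK cells, B cells and fibroblasts, 1 for conventional dendritic cells (Batf3), 1 for neutrophils (Csf3r), and 2 for plasmacytoid dendritic cells (Tcf4 and Ccr9), whose defining marker Siglech had 5 to 9 counts. In the second set of transcript tables that the authors made, 2 of 6 T and NK markers (Cd3d and Cd8a, with means of 13.1 and 2.83 TPM) and 1 fibroblast marker also reached it. There 3 of 6 plasmacytoid and 2 of 6 conventional dendritic markers reached it, and Siglech had a mean of 1.54 TPM. In RNA from a whole culture, fewer cells of a type and less RNA per cell cannot be told apart.

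All 8 members were present on chromatin, and each reached at least 1 TPM in every library. Among protein-coding genes 40.6% did so. The members lie on chromosomes 5 and 19 in 3 groups (GRCm38, GENCODE M21). Oas2 (chr5:120730333-120749853), Oas3 (chr5:120753098-120777661) and Oas1a (chr5:120896256-120907521) are on the minus strand of 1 region, Oasl2 (chr5:114896936-114912234) and Oasl1 (chr5:114923240-114937915) are neighbours on the plus strand, and Ifit2 (chr19:34550694-34576419), Ifit3 (chr19:34583531-34588731) and Ifit1 (chr19:34640871-34650009) are on the plus strand of chromosome 19. The gene models differ between the families. The longest isoforms of the Oas members have 6 to 16 exons, with 16 in Oas3, whereas Ifit1 and Ifit3 have 2 exons and Ifit2 has 3, and a single exon holds 2539 of the 2656 spliced bases of Ifit1.

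Short upstream stretches are printed for the 4 members whose windows hold a core of the interferon-stimulated response element. The core searched was GAAANNGAAA, or TTTCNNTTTC on the other strand, where N is any base, in the 250 bases before each annotated start in RefSeq's promoter table (GRCm38.p6). Each stretch is written 5′ to 3′ on the gene's strand, with the matches in capitals.

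Oas1a: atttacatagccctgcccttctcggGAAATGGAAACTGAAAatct
Oas3: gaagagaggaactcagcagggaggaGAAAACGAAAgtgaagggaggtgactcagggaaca
Ifit1: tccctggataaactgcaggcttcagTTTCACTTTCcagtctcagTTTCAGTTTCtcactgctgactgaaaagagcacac
Ifit3: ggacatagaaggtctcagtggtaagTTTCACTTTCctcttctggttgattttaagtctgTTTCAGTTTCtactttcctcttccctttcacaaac

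These are chr5:120907526-120907570 and chr5:120777700-120777759 on the minus strand for Oas1a and Oas3, and chr19:34640760-34640838 and chr19:34583348-34583441 on the plus strand for Ifit1 and Ifit3. Of the members, 7 have a window in the table and 4 of the 7 hold a match, whereas 2.98% of 32851 windows of the same length, or 3.46% of 27025 genes, do. Ifit1 and Ifit3 have 2 separate matches each, the first 104 and 156 bases before the start. In Oas1a the 2 matches, 20 and 14 bases before the start, overlap and share bases of the run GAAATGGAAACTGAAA, and Oas3 has 1 match 75 bases before its start. Windows with 2 or more matches make up 0.180% of the table. The windows of Oasl1, Oasl2 and Ifit2 do not hold these letters, and Oas2 has no entry in the table. A match describes the sequence, and binding was not measured here.

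Oas2 and Oasl2 had the highest levels of the 8. Oas2, an oligoadenylate synthetase built from repeated catalytic units, was at 72.74, 68.95 and 120.1 TPM in replicates 1, 2 and 3, a mean of 87.3 ± 28.5 (SD, n = 3). Oasl2, a synthetase with added ubiquitin-like domains, was at 75.89, 60.67 and 133.4 TPM, a mean of 90.0 ± 38.4 (SD, n = 3). Both means lie above those of more than 98.3% of coding genes, with 366 coding genes above Oas2 and 347 above Oasl2. Their TPM rest on unequal numbers of reads: Oas2 had 6903, 4765 and 5604 expected counts and Oasl2 2814, 1655 and 2410. The mean effective length that the authors' quantification gave was 3343 bases for Oas2 and 1307 for Oasl2, so Oas2 had more counts than Oasl2 in each library at a similar TPM.

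Oas1a and Oas3 were lower, at levels near each other. Oas1a, the single-unit synthetase, was at 12.9, 10.19 and 18.99 TPM (14.0 ± 4.51, SD, n = 3), from 608, 354 and 432 counts. Oas3, the largest synthetase and a sensor of long double-stranded RNA, was at 11.81, 9.42 and 16.7 TPM (12.6 ± 3.71, SD, n = 3), from 1055, 670 and 768 counts. Oasl1 was the lowest Oas member at 3.89, 4.84 and 8.68 TPM (5.80 ± 2.54, SD, n = 3), from 133, 100 and 134 counts. Oasl1 lacks synthetase activity and is known to restrain translation of the mRNA of Irf7. Its genomic neighbour Oasl2 was more than 10-fold higher in each library, at 19.5, 12.5 and 15.4 times the TPM of Oasl1.

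Of the Ifit members, Ifit3 and Ifit2 were at similar levels and Ifit1 was the lowest member of all. Ifit3, a partner of the other Ifit proteins in RNA-binding complexes, was at 17.4, 10.12 and 23.32 TPM (16.9 ± 6.61, SD, n = 3), from 752, 322 and 485 counts. Ifit2, an RNA-binding member also linked to cell death, was at 15.61, 8.3 and 18.34 TPM (14.1 ± 5.19, SD, n = 3), from 1574, 629 and 902 counts. Ifit1, which binds the cap of mRNA that lacks host methylation, was at 2.87, 2.09 and 3.89 TPM (2.95 ± 0.903, SD, n = 3), from 197, 107 and 130 counts. The mean of Ifit1 lies above that of 65.5% of coding genes, against 87.3% for Ifit3. The credibility intervals that the authors deposited need not hold the TPM printed here: the TPM of Oas2 lay above its interval in 3 of 3 libraries, as did those of Oasl2, Ifit2 and Ifit3 in replicate 3.

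**Figure D1:**
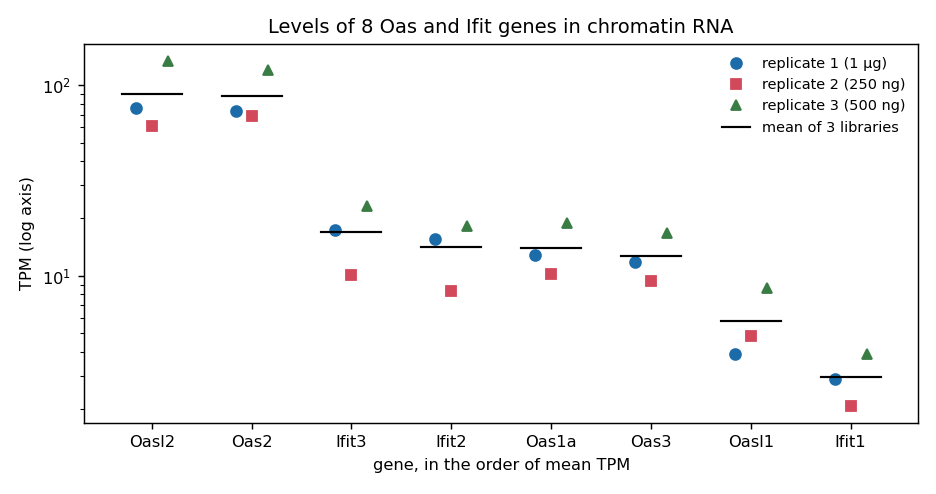
TPM of the 8 members in each library on a log axis, in the order of mean TPM, with a line at the mean of 3 libraries. Oasl2 and Oas2 stand above the rest, 4 genes lie between 12.6 and 16.9 TPM, and Oasl1 and Ifit1 are lowest; replicate 3 is highest for all 8 genes.

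Neighbours in this order were compared within each library, as differences of log2(TPM + 0.1). Oasl2 and Oas2 did not differ beyond their spread, at 0.01 ± 0.17 (SD, n = 3), with Oasl2 higher in 2 of 3 libraries; without replicate 2 the difference was 0.11 in favour of Oasl2. The next step was the largest: Oas2 exceeded Ifit3 by 2.39 ± 0.35 in 3 of 3 libraries. Ifit3 exceeded Ifit2 by 0.26 ± 0.10 and Oas1a exceeded Oas3 by 0.14 ± 0.04, small differences with 1 sign in 3 of 3 libraries. Ifit2 and Oas1a did not differ beyond their spread (-0.02 ± 0.28). Oas3 exceeded Oasl1 by 1.15 ± 0.37, and Oasl1 exceeded Ifit1 by 0.91 ± 0.42. With 3 libraries the smallest two-sided p of an exact sign-flip test is 0.25, so that test cannot call any of these steps, and they are given as differences with their spread.

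The separate transcript quantification that the authors also deposited, called the second tables here, gave the members like levels. Oasl2 and Oas2 were again highest, at 108 ± 43.5 and 91.4 ± 26.9 TPM (SD, n = 3). Oas1a (16.04 ± 4.93), Ifit3 (15.4 ± 6.34), Oas3 (14.9 ± 4.86) and Ifit2 (13.8 ± 5.72) followed close together, with the mean of Oas1a now above those of Ifit3 and Ifit2. Within libraries Ifit2 minus Oas1a was -0.27 ± 0.26 log2 units, with 1 sign in 3 of 3 libraries, just beyond its spread. Ifit3 was above Oas1a in replicate 1, at 19.2 against 17.9 TPM. Oasl1 was at 8.51 ± 3.81 and Ifit1 at 3.97 ± 1.79 TPM, again the lowest. Second-table levels were 0.910 times (Ifit3) to 1.47 times (Oasl1) those of the gene tables, where the median coding gene was at 1.54 times.

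As families the Oas and Ifit members had like medians. The median Oas member was at 14.0 ± 4.51 TPM and the median Ifit member at 14.1 ± 5.19 TPM (SD, n = 3). The Oas median minus the Ifit median was -0.27, 0.29 and 0.05 on the log2 scale in replicates 1, 2 and 3, a mean of 0.02 ± 0.28, so its sign differed between libraries. In the second tables the Oas median was higher in 3 of 3 libraries, by 0.27 ± 0.26, so the comparison depends on the quantification. With means of log2 levels in place of medians the Oas members were higher by 1.43 ± 0.28; the means take in the high Oas2 and Oasl2 and the low Ifit1.

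Most other Oas1 and Ifit genes were at lower levels than the members, and Oas1g was not. Oas1g was at 18.18, 12.05 and 26.69 TPM (18.97 ± 7.35, SD, n = 3), above Oas1a in each library. Of the 10 Oas1 and Ifit genes outside the listed 8, only Oas1g and Oas1b reached 1 TPM in every library; Oas1b, annotated as a polymorphic pseudogene, was at 4.52 ± 0.878 TPM, above Ifit1 in each library. Oas1h (1.30 ± 0.378) and Oas1c (1.09 ± 0.503) lay near 1 TPM. Ifit3b was at 0.643 ± 0.276, Ifit1bl1 at 0.177 and Ifit1bl2 at 0.0467 TPM. Oas1f had 1 count in replicate 1 and 0 in the others, and Oas1d and Oas1e had 0 counts in every library. In the second tables the number of these genes reaching 1 TPM in every library was 5 of 10.

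**Figure D2:**
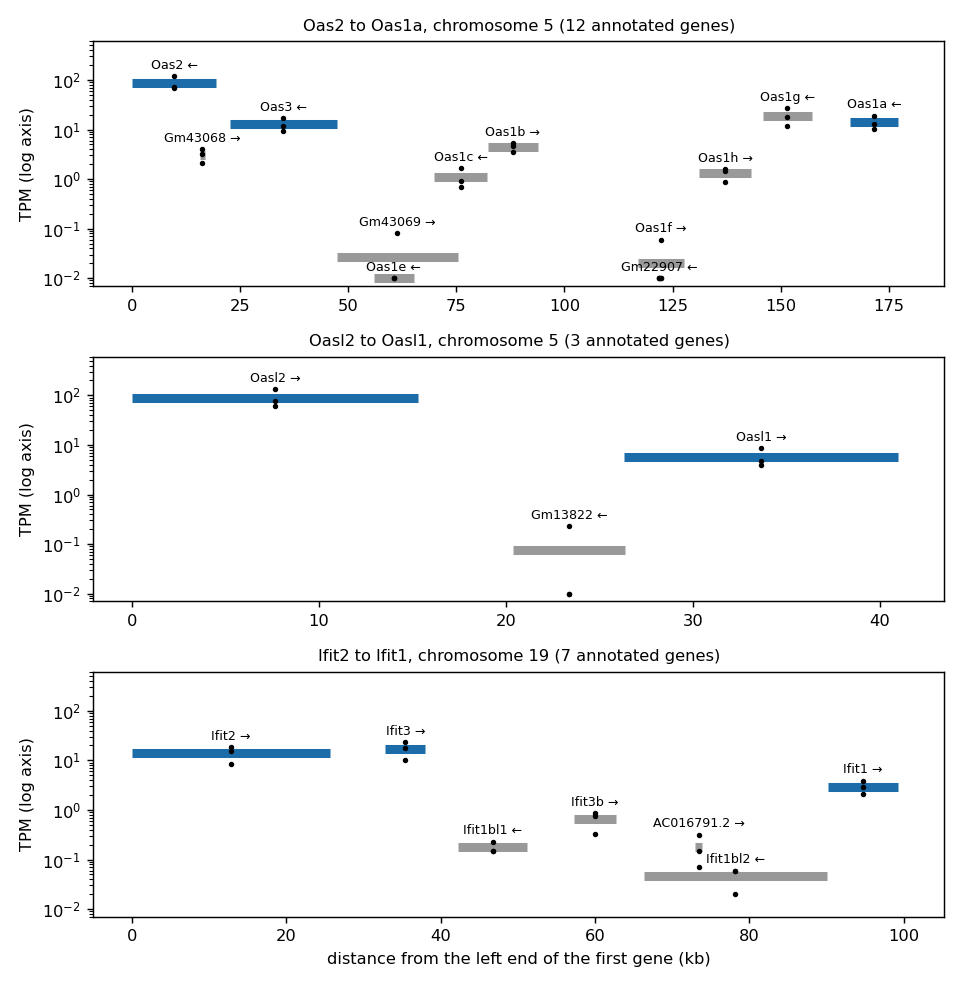
Mean TPM (bars, log axis) and TPM per library (points) of every annotated gene between the outermost members of each group, against distance from the left end of the first gene in kb, with arrows for strand, members in blue and values under 0.01 TPM drawn at 0.01. Within the Oas region Oas2 is highest and Oas1e is at 0, and Ifit3 lies well above its copy Ifit3b.

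Oas1a and Ifit3 each have a near-identical copy, so their values depend on how reads were divided. The coding sequence of Oas1a matches that of Oas1g at 1065 of 1101 bases (96.7%), and that of Ifit3 matches Ifit3b at 1198 of 1209 (99.1%). The 120 coding bases with the most differences are shown for each pair, with the differing bases in capitals (GENCODE M21 transcripts, bases 408 to 527 of the Oas1a and Oas1g coding sequences and 169 to 288 of the Ifit3 and Ifit3b ones). In the first pair 17 of 120 bases differ, and in the second 4.

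Oas1a: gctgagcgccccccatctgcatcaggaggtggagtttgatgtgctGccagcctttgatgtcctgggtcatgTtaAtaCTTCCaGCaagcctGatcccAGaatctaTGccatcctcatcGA
Oas1g: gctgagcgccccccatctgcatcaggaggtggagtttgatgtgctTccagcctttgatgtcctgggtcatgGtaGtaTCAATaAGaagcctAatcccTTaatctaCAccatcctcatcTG
Ifit3: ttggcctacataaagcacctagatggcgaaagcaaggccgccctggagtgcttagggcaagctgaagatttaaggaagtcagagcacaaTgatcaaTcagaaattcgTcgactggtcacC
Ifit3b: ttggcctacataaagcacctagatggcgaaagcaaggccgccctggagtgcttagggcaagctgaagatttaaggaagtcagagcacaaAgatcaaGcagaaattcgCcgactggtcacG

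Over whole transcripts, 57.6% of the 50-base windows of Oas1a occur in another gene, all of them in Oas1g, and 51.2% of those of Ifit3 occur in Ifit3b. With 100-base windows the shares were 40.9% and 31.7%. Ifit1 shared 7.13% of its 50-base windows, mainly with Ifit1bl2, Oas3 shared 0.792%, and Oas2, Oasl1, Oasl2 and Ifit2 shared none. The upstream stretch printed for Ifit3 is identical in Ifit3b at 94 of 94 bases, and that of Oas1a in Oas1g at 43 of 43. Despite this, the 2 quantifications put the pairs in the same order. Ifit3 was at 23.2, 30.7 and 27.4 times the TPM of Ifit3b in the gene tables and 15.3, 5.94 and 9.71 times in the second tables. Oas1a was at 0.710, 0.846 and 0.712 times the TPM of Oas1g (0.756 ± 0.0780, SD, n = 3), and at 0.509 ± 0.0761 times in the second tables. The levels of Oas1a and Ifit3 remain uncertain to the extent that shared reads were split. Between different members identity was lower, from 62.6% of aligned coding bases for Ifit1 and Ifit2 to 78.6% for Oas1a and Oas3.

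Overlapping genes on the opposite strand held few counts. Gm43068, an unconfirmed transcript inside Oas2, had 98, 46 and 57 counts, or 1.42%, 0.965% and 1.02% of the Oas2 count. The antisense gene Gm13822 overlaps Oasl1 by 38 bases and had 1, 0 and 0 counts. No source used here states whether the counting used strand, so reads from such partners cannot be told apart.

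The annotated isoforms to which reads were assigned differed among the Oas members. The noncoding share is the percentage of a gene's TPM in isoforms of any type other than protein-coding, and 4 members, Oas1a, Ifit1, Ifit2 and Ifit3, have no such isoform annotated. In Oas2 the share was 3.02%, 0.841% and 4.03% in replicates 1, 2 and 3, a mean of 2.63% ± 1.63 (SD, n = 3), all of it in 1 retained-intron isoform. In Oas3 it was 29.0%, 21.7% and 28.7% (26.5% ± 4.18), in Oasl1 53.4%, 69.4% and 59.5% (60.7% ± 8.08) and in Oasl2 90.7%, 85.3% and 91.9% (89.3% ± 3.52). In the tables with expected counts the ranges of these 4 genes did not overlap. In the second tables Oasl1 (75.5% ± 3.61) and Oasl2 (83.6% ± 4.76) lay closer together, so their separation depends on the quantification. Shares of TPM are not shares of counts, because short isoforms gain TPM per count. In Oasl1 the retained-intron Oasl1-204, of 800 bases, had 27, 39 and 39 expected counts. The coding Oasl1-202, of 2181 bases, had 58, 45 and 94, more in each library although its TPM was lower in each. Over 7714 coding genes with such an isoform the median share was 51.3%, with quartiles of 31.5% and 68.0%, so Oas2 and Oas3 lay below the lower quartile and Oasl2 above the upper one.

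In the tables with expected counts the highest isoform of Oasl2 was Oasl2-205, annotated as a target of nonsense-mediated decay, a pathway that degrades mRNA with early stop codons. It was at 20.1, 18.1 and 36.2 TPM, or 27.8% ± 1.81 of the gene (SD, n = 3). In the second tables the retained-intron isoform Oasl2-203 was above it in replicates 1 and 3, at 27.8, 13.3 and 39.5 TPM against 21.4, 13.8 and 30.9, so the highest isoform depends on the quantification. Retained-intron isoforms held 61.4% ± 5.26 of Oasl2, and the longest isoform, the coding Oasl2-201, was at 5.08, 5.07 and 9.85 TPM. In Oas2 the order was the other way round, with the coding isoform Oas2-201 at 50.76, 47.98 and 82.85 TPM. These shares come from models of annotated isoforms, so RNA whose introns are not part of any annotated isoform is not represented.

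**Figure D3:**
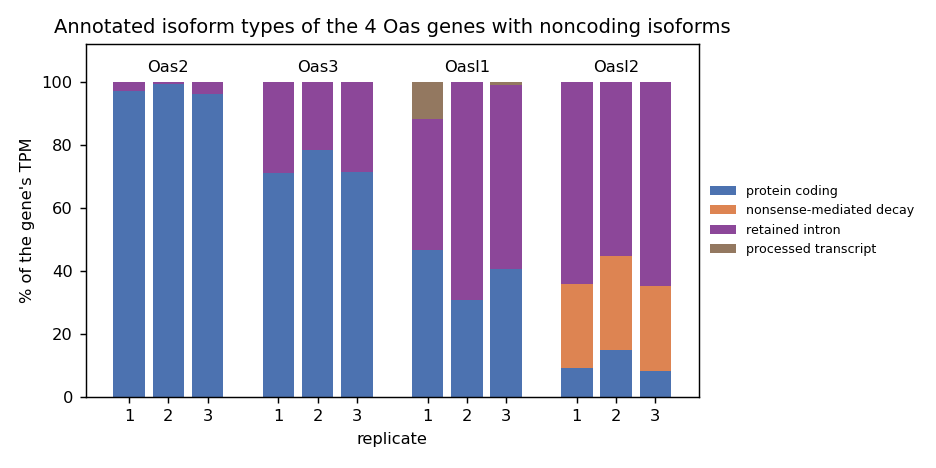
Share of the gene's TPM in each annotated isoform type (stacked bars, percent) in replicates 1, 2 and 3 for the 4 members with noncoding isoforms. Oas2 is almost all coding in each library, and Oasl2 is at most 14.7% coding.

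Between libraries the members varied together. On the TPM scale all 8 were highest in replicate 3, and 7 were lowest in replicate 2, with Oasl1 lowest in replicate 1. The highest library was 1.74 to 2.30 times the lowest, and coefficients of variation were 29.4% to 43.7%, against a median of 30.6% over detected coding genes. The TPM pattern holds the scaling described above, so CPM with TMM factors, which align the libraries on the bulk of genes, were used to compare libraries.

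On that scale 8 of 8 members were lowest in replicate 2, as were 34.1% of coding genes, and 7 of 8 were highest in replicate 1, as were 24.7% of coding genes. The exception was Oasl1, highest in replicate 3. Ifit2 and Ifit3 deviated most. Ifit2 lay at 0.55, -0.52 and -0.03 from its own mean in replicates 1, 2 and 3 (log2 units), and Ifit3 at 0.46, -0.51 and 0.05. In replicate 2 these values were at percentiles 4.68 and 4.89 of coding genes. Oas2 was the flattest, at 0.12, -0.16 and 0.04. Oasl2 lay at 0.17, -0.34 and 0.17, so replicates 1 and 3 were level for it. With TPM rescaled over coding genes, replicate 2 was lowest for 7 members, the exception being Oasl1, and Oas2, Oasl1 and Oasl2 were highest in replicate 3.

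**Figure D4:**
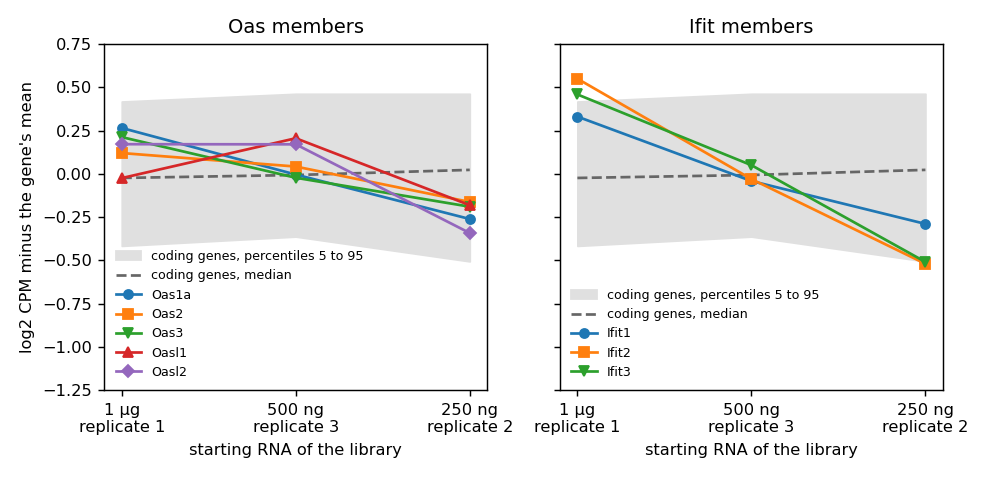
TMM-scaled log2 CPM of each member minus its own mean, by library in the order of starting RNA, with the band of percentiles 5 to 95 over 11372 coding genes. Lines of all members end lowest in replicate 2 (250 ng), and Ifit2 and Ifit3 lie above the band in replicate 1 and just under its lower edge in replicate 2.

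The only difference that the labels give between libraries is the starting amount, so a slope per doubling of starting RNA was fitted over all genes. No member passed: edgeR's quasi-likelihood test with Benjamini-Hochberg adjustment called 0 of 8, against 88 of 15065 genes (0.584%). At an unadjusted p under 0.05 there were 2 members, Ifit2 and Ifit3, and DESeq2 also called 0 with 2 at that level. Ifit2 had a log2 slope of 0.54 ± 0.16 (SE; edgeR adjusted p = 0.235) and Ifit3 one of 0.49 ± 0.17 (edgeR adjusted p = 0.383). The slopes of the other 6 ran from 0.08 for Oasl1 to 0.31 for Ifit1, with edgeR adjusted p-values of 0.916 to 0.999. All 8 slopes were positive, as were 50.7% of the slopes of all genes tested. The members' median slope was 0.26, beside 0.00 over all genes tested. With coding genes alone in the edgeR fit, Ifit2 passed with a slope of 0.56 and an adjusted p of 0.0480. That fit called 160 of 11302 genes (1.42%). Each amount has 1 library, so the amount and the library cannot be told apart.

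Slopes of Oasl1 and Oasl2 depended on replicate 2. Without it the slope of Oasl1 was -0.23, and without replicate 1 it was 0.36; for Oasl2 the values were 0.0026 and 0.49. Other readouts also set the libraries apart: collagen and other fibroblast markers summed to 0.02, 1.16 and 1.09 TPM in replicates 1, 2 and 3, with Lum at 0 counts throughout. Macrophage markers had a median slope of 0.03 and 0 of 10 were called. The part of library composition in the members' pattern was not tested.

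The genes that feed into and act after the members were compared by lists. All 8 interferon ligand genes listed, Ifnb1, Ifna1, Ifna2, Ifna4, Ifna5, Ifng, Ifnl2 and Ifnl3, had 0 expected counts in every library, which allows up to 3 counts each. In the second tables Ifnb1 and Ifna2 had means of 0.0207 and 0.0826 TPM, and the other listed ligands were at 0. The receptor and signalling genes were all present: 9 of 9 reached 1 TPM in every library. Their median level was 34.6 ± 10.1 TPM (SD of library medians, n = 3). Stat2, the transactivating partner in the interferon complex, was highest at 79.39, 98.62 and 119.18 TPM. These values lie in the range of Oas2 and Oasl2, and 0 of the 9 genes were called for a slope (median 0.02).

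All 6 interferon regulatory factors listed were also present, with a median of 62.1 ± 13.4 TPM. Irf1 was highest at 618.02, 219.82 and 454.13 TPM, above every member in each library, and had a slope of 0.95 ± 0.21 that did not pass (edgeR adjusted p = 0.0517). Irf7, the factor whose translation Oasl1 restrains, was the lowest of the 6 at 24.15, 20.22 and 32.55 TPM, and exceeded Oasl1 in each library. Pde12, which degrades the oligoadenylates that Oas enzymes make, was at 1.91, 1.79 and 4.04 TPM, below each Oas member in each library. Its slope was 0.12 ± 0.18 (SE; edgeR adjusted p = 0.999).

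Other interferon-stimulated genes were at levels like those of the members, and most were also lowest in replicate 2. Of 22, 21 reached 1 TPM in every library, and the list's median was 16.8 ± 6.36 TPM, near the 14.2 ± 4.45 TPM of the 8 members. Parp14, Mx1 and Trim30a were the highest, with means of 136.8, 69.3 and 53.3 TPM, and Isg20 the lowest at 0.993 TPM. On the TMM scale 16 of 22 were lowest in replicate 2 and 20 of 22 highest in replicate 1. All 22 slopes were positive, beside 50.7% over all genes tested, with a median of 0.35. By edgeR 3 were called higher with more RNA and 0 lower. They were Cxcl10 (slope 1.31, edgeR adjusted p = 0.00250), Gbp2 (1.19, edgeR adjusted p = 0.00542) and Ifi44 (0.94, edgeR adjusted p = 0.0260), named because they were called. Among 4 negative regulators of the pathway, 3 reached 1 TPM and 1 was called, Socs3, at 26.47, 4.47 and 24.02 TPM (slope 1.35, edgeR adjusted p = 0.00250). Their slopes exceed those of the 8 members, and the differences between genes were not tested.

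**Figure D5:**
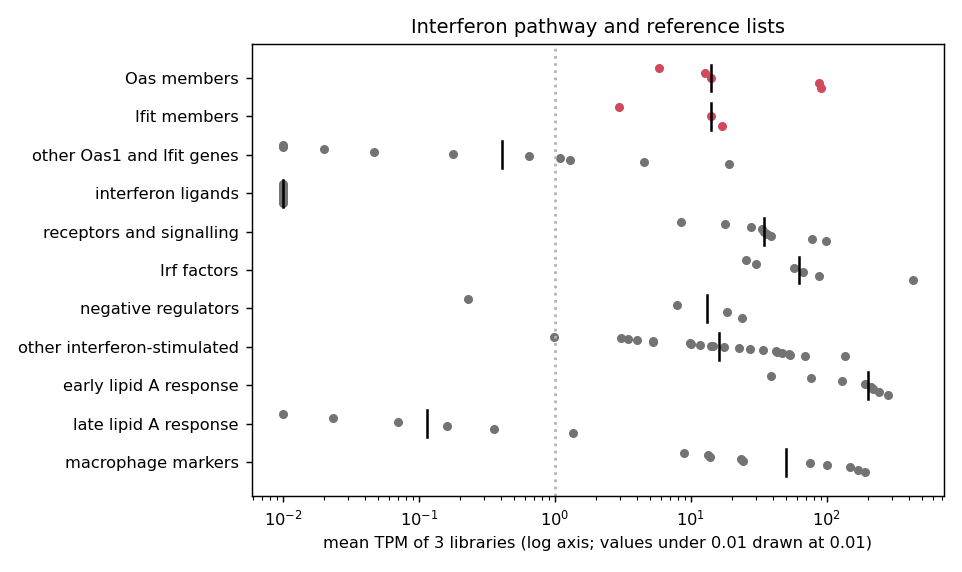
Mean TPM of 3 libraries (log axis) of each gene of the members and of the pathway and reference lists, with a line at the median of the gene means and a dotted line at 1 TPM. Interferon ligands and the late lipid A genes lie at or below the dotted line except 1, and the members lie among the other interferon-stimulated genes.

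Early and late lipid A genes gave a scale for the members' levels. The 8 early genes, such as Fos and Nfkbia, had a median of 176 ± 66.5 TPM, and 8 of 8 reached 1 TPM in every library. On the TMM scale 7 of these 8 were lowest in replicate 2. Of the 8 slopes 7 were positive, beside 50.7% over all genes tested, with a median of 0.40 and 0 called. Fos was the exception in both, lowest in replicate 1 and with a slope of -0.48. The library pattern was thus not limited to interferon genes. By level, 0 of 6 late genes were at or above the limit of 1 TPM throughout the 3 libraries. The late list had a median level of 0.0900 ± 0.0614 TPM. The median member lay between these lists. The 3 genes of the interferon lists nearest to the members' median TPM profile over the 3 libraries were Trim30a, Rsad2 and Herc6, whose largest differences from that profile were 0.07, 0.07 and 0.09 log2 units in any library, out of 46 genes compared. This likeness rests on 3 libraries that share the TPM scaling, and is given as a description.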

How the data were processed

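Per the file headers and the listing of each library's inputs, each replicate was quantified on its own by the authors on mm10 with GENCODE annotation M21. Gene and transcript tables hold expected counts and TPM deposited by the authors; a second set of transcript tables holds the estimated counts and TPM that the authors made separately. The deposited signal columns are bounds of a credibility interval in TPM. No source used here gives the tools, their versions or the use of strand. TPM are scaled over all entries, so the entries outside protein-coding genes, which held most of the TPM, lower the TPM of each coding gene.

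The 8 members and the gene lists were chosen with earlier results of these data known. All 8 members were named; of other lists, at most the 3 highest and the lowest gene by level, the 3 genes nearest to the members' profile and every gene of the family list. Genes at 0, called genes and a few others were named after their values were seen, and some genes of these lists are not reported here. Slopes on log2 starting RNA were fitted to expected counts rounded to whole numbers with edgeR 4.0.16 (R 4.3.3; TMM, filterByExpr, 15065 genes, adjusted p below 0.05) and, as an alternative, DESeq2 1.42.0. The fit has 1 residual degree of freedom per gene. In simulated data it recovered 80% of genes with a slope of 1 and 100% of those with a slope of 2. It also called 7 genes without a slope. Every simulated gene had the same biological coefficient of variation (21.0%), and slopes were put only on genes above a minimum CPM. Real genes differ in their spread, so recovery in the data may differ. Slopes as small as those of the members were not simulated, so the share recovered at their size is not known. Levels and neighbour differences use log2(TPM + 0.1), with a difference beyond the spread where it had 1 sign in 3 of 3 libraries and exceeded 1 SD. Symbols, isoform types and coding sequences came from GENCODE M21 (GRCm38), promoters from RefSeq. Alternatives covered the second tables, posterior mean TPM, TPM rescaled over coding genes, other pseudocounts, limits and filters, and each replicate left out. Python 3.11.15, numpy 2.4.6, pandas 2.3.3, matplotlib 3.10.9 and Biopython 1.88 were used.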

Additional observations from a re-analysis of the deposited data

How the results depend on the processing

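The number of members at 1 TPM and the noncoding shares of Oas2 and Oas3 changed little under the alternatives run. At a limit of 5 TPM in place of 1, 6 of 8 members reached it in every library, and Oasl1 and Ifit1 did not. In the order of levels Oasl2 and Oas2 stayed highest, and Oasl1 and Ifit1 lowest. The order of the members between them varied, and in the second tables the mean of Oas1a was above those of Ifit3 and Ifit2. The Oas median minus the Ifit median ran from -0.11 (without replicate 2) to 0.17 when a replicate was left out, was 0.27 in the second tables and 1.43 with means. Fitted on coding genes alone, 1 member was called for a slope and 160 genes in all, beside 88; 284 were called without a filter and 158 in the second tables. The second tables gave noncoding shares of 75.5% for Oasl1 and 83.6% for Oasl2, and counting retained introns alone gave 61.4% for Oasl2. Rescaling TPM over coding genes raised every level by construction, for Oas2 to 443 TPM. In the second tables Oasl1 was at 8.51 and Ifit1 at 3.97 TPM. The cause of the other shifts was not tested. No paired analysis was possible because there is 1 group. Depth limits Oasl1 and Ifit1 most, with 100 to 197 counts per library.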
